A study of Homo sapiens with 15 samples.

Results

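The genes described here are 10 transcription factors of epithelial-mesenchymal transition (EMT) and of mesenchymal cells, SNAI1, SNAI2, TWIST1, TWIST2, ZEB1, ZEB2, FOXC1, FOXC2, PRRX2 and TCF21, out of 19684 genes in the deposited tables. They were chosen by symbol, and each symbol stood for 1 gene identifier. Their RNA was measured by poly(A) RNA-seq in 15 libraries from the BC1-GFP line, a human induced pluripotent stem cell (hiPSC) line that carries a GFP reporter. The 5 groups of 3 libraries were undifferentiated hiPSCs, neural retina layers of retinal organoids (ROs) at day 70 (D70-ROs), the same layers at day 150 (D150-ROs), and Müller glial cells grown out of day 150 neural retina layers (iMGCs), taken on day 5 of passage 1 (P1 iMGCs) and on day 5 of passage 5 (P5 iMGCs). All groups came from this single line. hiPSCs grew on Matrigel in mTeSR1 medium, ROs in suspension in supplemented retinal medium, which also held serum, and iMGCs as dissociated cells on Matrigel in DMEM with serum. The medium differed between hiPSCs, ROs and iMGCs, and a supplement of the RO medium was exchanged between day 70 and day 150. Attachment differed between ROs and both hiPSCs and iMGCs. These differences cannot be told apart from the group.

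EMT is the change by which cells of an epithelial sheet give up cell-cell junctions and apical-basal polarity and take on the adhesion, matrix and motility of mesenchymal cells. The Snail zinc-finger proteins (SNAI1, SNAI2) and the ZEB zinc-finger homeodomain proteins (ZEB1, ZEB2) are known to bind E-box motifs in promoters of epithelial genes such as CDH1 and to repress them, and the basic helix-loop-helix proteins TWIST1, TWIST2 and TCF21 bind E-boxes as dimers with E proteins such as TCF3, TCF4 and TCF12. FOXC1 and FOXC2 are forkhead proteins and PRRX2 is a paired-type homeodomain protein, all known from embryonic mesenchyme, including that around the eye in the case of FOXC1. ZEB2 is also known as a regulator of neural progenitors and neurons, and SNAI2 as a neural crest factor.

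Levels are given as the authors' FPKM, read fragments scaled to transcript length and to the mapped reads of the library, so that they can be set side by side between genes. Positions follow GENCODE 29 (GRCh38). Differences are log2 fold changes with SE from edgeR's quasi-likelihood test on rounded expected counts with TMM scaling. A gene was tested where at least 3 of the libraries compared reached 1 FPKM, and it was called higher or lower at a Benjamini-Hochberg adjusted p under 0.05, over all genes tested, and a change of at least 2-fold. In the comparisons of iMGCs with earlier groups both passages were taken as 1 group of 6 libraries. Every comparison with hiPSCs used the same 3 hiPSC libraries, and those with D150-ROs the same 3 D150-RO libraries.

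The libraries held 11349600 to 20398755 expected counts, and the lowest total was that of D70-RO replicate 2. The sources differ on whether hiPSCs and ROs came from 2 or 3 independent experiments, so that p-values may in part measure technical spread. The iMGC libraries stand in another table than the hiPSC and RO libraries, the series description mentions 2 sequencing companies and a batch correction without naming libraries, and a batch that follows these groups cannot be told apart from them. Of 9 markers of Müller glia, 8 reached a mean of 1 FPKM in D150-ROs, 5 in P1 iMGCs and 6 in P5 iMGCs. RLBP1 was listed at 0 in P1 iMGCs and AQP4 in both passages. VIM (mean 1065 FPKM in D150-ROs and 2509 in iMGCs) and APOE (13.62 and 35.85) stood higher in iMGCs. GLUL (100.2 and 13.98), NES (181.1 and 24.55), SOX9 (42.57 and 4.402) and SLC1A3 (28.01 and 0.7817) stood lower there. RLBP1, KCNJ10 and AQP4 were lower in iMGCs too. The summed FPKM of 8 photoreceptor markers was 934.5 to 1067 in D150-ROs and 0.2 to 0.57 in iMGCs, where CRX and PDE6H were among those listed at 0. The summed FPKM of 8 fibroblast and pericyte markers, some of which also belong to the mesenchymal list used below, was 33.1 to 36.1 in D150-ROs and 2308 to 2877 in iMGCs. Most of the sum in iMGCs came from COL1A1 (mean 2108 FPKM) and COL1A2 (229). Among these markers only PDGFRA was lower in iMGCs, at 0.393 FPKM against 6.30 in D150-ROs. In iMGCs markers of microglia and blood (0.31 to 0.94), endothelium (0.57 to 0.99) and periocular mesenchyme and neural crest (1.1 to 3.09) were near 0. In bulk RNA, fewer cells of a type and less RNA per cell cannot be told apart.

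Promoter windows from RefSeq on GRCh38.p14, each from 250 bases before to 50 bases after a transcription start, were searched for CAGGTG, the E-box that Snail and ZEB proteins are known to bind, and for its reverse complement CACCTG. The table of windows held 35116 windows, of which 20.6% contained this motif, and it matched 6 of the 10 factors (TWIST2, ZEB1, ZEB2, FOXC1, PRRX2 and TCF21). Among their 12 windows 2 contained the motif, both of ZEB1. Of 27 epithelial genes used below, 14 had a window, and 11 of their 18 windows (61.1%), from 10 genes, contained it. The median GC content was 65.8% over these 18 windows and 58.7% over all windows. The windows with the most matches among the epithelial genes, those of CLDN7, a tight junction claudin, and CRB3, an apical polarity protein, are shown with those of ZEB1 and ZEB2 to show the letters, and capitals mark the E-boxes.
ZEB1, chr10:31318966-31319265, plus strand: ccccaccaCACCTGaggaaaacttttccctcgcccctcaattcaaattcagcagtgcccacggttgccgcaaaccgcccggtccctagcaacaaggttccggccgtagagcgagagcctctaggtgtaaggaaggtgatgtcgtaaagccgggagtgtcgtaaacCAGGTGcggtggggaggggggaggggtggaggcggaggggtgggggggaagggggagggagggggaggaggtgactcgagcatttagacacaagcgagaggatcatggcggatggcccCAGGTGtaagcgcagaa
ZEB2, chr2:144520070-144520369, minus strand: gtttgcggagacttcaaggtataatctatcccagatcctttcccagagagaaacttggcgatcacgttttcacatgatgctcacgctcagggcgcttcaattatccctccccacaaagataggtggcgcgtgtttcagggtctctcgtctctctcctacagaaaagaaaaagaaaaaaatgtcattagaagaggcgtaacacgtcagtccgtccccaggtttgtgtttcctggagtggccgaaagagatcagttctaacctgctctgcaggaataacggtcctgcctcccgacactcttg
CLDN7, chr17:7262429-7262728, minus strand: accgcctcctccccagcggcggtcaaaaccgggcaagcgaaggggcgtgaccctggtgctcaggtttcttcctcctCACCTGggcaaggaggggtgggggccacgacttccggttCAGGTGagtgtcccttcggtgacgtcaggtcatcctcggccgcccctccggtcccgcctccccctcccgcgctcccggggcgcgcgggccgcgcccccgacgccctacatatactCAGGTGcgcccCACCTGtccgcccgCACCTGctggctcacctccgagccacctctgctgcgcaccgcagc
CRB3, chr19:6464021-6464320, plus strand: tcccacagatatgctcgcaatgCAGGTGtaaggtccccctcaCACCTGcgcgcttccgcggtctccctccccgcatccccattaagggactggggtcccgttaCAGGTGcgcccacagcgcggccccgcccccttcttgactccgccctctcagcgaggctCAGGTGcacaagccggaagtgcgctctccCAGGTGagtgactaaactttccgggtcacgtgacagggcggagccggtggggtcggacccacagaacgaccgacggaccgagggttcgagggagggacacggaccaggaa
The windows shown held 5 matches each for CLDN7 and CRB3, 3 for ZEB1 and none for ZEB2. For ZEB1 and CLDN7 the window with the most matches is shown. Of the 7 windows of ZEB1, 1 other held 1 match and 5 held none, and the second window of CLDN7 held none. Such matches describe the letters only, and binding was not measured in these samples.

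**Figure D1:**
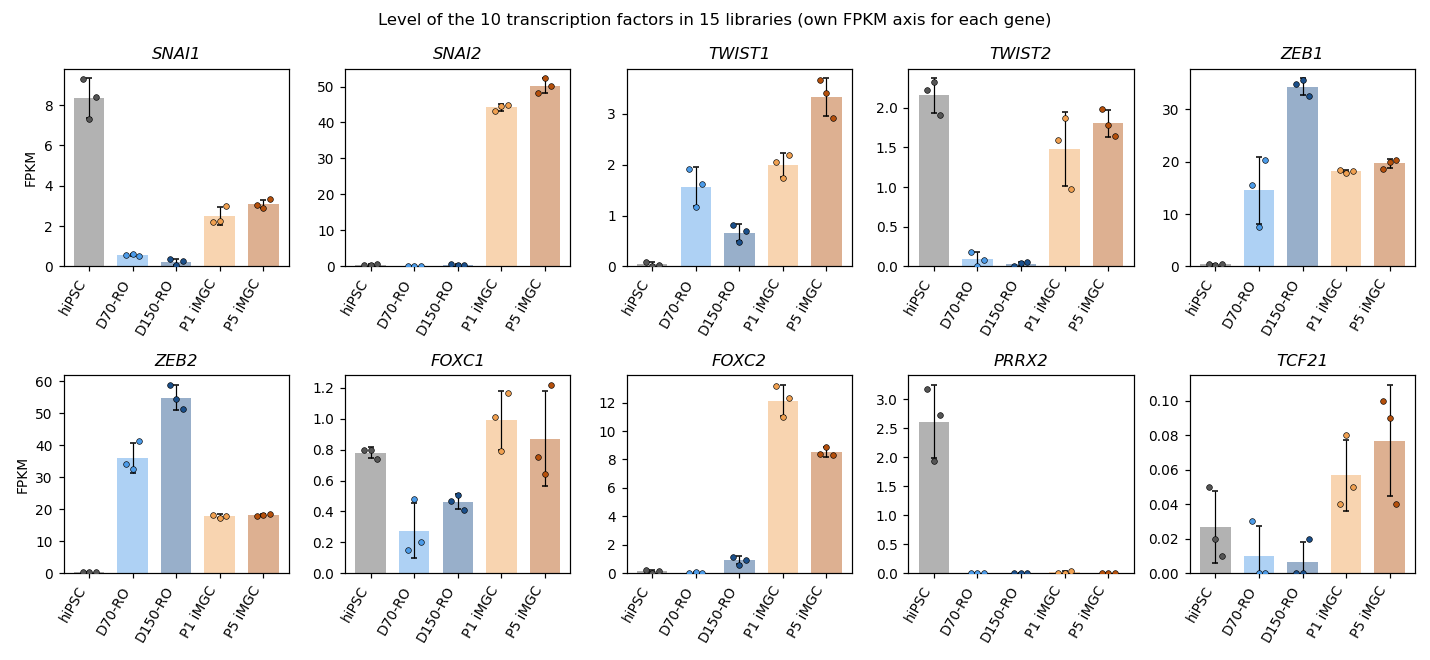
FPKM of each of the 10 factors (vertical axis, own scale for each gene) in the 5 groups. Points are libraries, bars are means and error bars are SD (n = 3). SNAI2 and FOXC2 stood highest in iMGCs, ZEB1 and ZEB2 in D150-ROs, and SNAI1 and PRRX2 in hiPSCs.

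The Snail factors changed places between hiPSCs and iMGCs. SNAI1 (ENSG00000124216, chromosome 20, 49982999 to 49988886, plus strand) was at 9.32, 7.33 and 8.40 FPKM in the hiPSC libraries, at 0.57, 0.63 and 0.53 in D70-ROs and at 0.35, 0.07 and 0.25 in D150-ROs. In P1 iMGCs it was at 2.22, 2.26 and 3.01, and in P5 iMGCs at 3.05, 2.90 and 3.33. Its levels stood highest in hiPSCs, then in iMGCs, whose passages overlapped, then in D70-ROs and last in D150-ROs, with no overlap between the other neighbours. SNAI1 was lower in D70-ROs than in hiPSCs by a log2 fold change of −4.01 ± 0.22 (SE, adjusted p = 3.86e-08) and in D150-ROs by −5.57 ± 0.28 (adjusted p = 2e-09). It was higher in iMGCs than in D150-ROs by 4.27 ± 0.34 (adjusted p = 2.38e-07) and still lower than in hiPSCs, by −1.27 ± 0.16 (adjusted p = 6.6e-06).

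SNAI2 (ENSG00000019549, chromosome 8, 48917604 to 48921740, minus strand) was low before the glial cells were cultured. It was at 0.27, 0.50 and 0.73 FPKM in the hiPSC libraries, at 0.16, 0.13 and 0.11 in D70-ROs and at 0.52, 0.48 and 0.39 in D150-ROs. In P1 iMGCs it reached 43.15, 44.71 and 44.92, and in P5 iMGCs 48.18, 52.37 and 50.02, the highest level of any of the 10 factors in iMGCs. hiPSCs and D150-ROs overlapped, and every iMGC library was far above all 9 others. SNAI2 rose in iMGCs by 7.49 ± 0.15 on the log2 scale against D150-ROs (adjusted p = 2.07e-12) and by 6.84 ± 0.20 against hiPSCs (adjusted p = 1.68e-11). It missed the filter in all comparisons without iMGCs. When the filter was dropped, SNAI2 was lower in D70-ROs (log2 fold change against hiPSCs −1.95 ± 0.57, adjusted p = 0.00765), while its differences of D150-ROs from hiPSCs (adjusted p = 0.194) and from D70-ROs (adjusted p = 0.0636) did not pass.

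Within the pair, SNAI2 made up 5.73% ± 2.65 (SD, n = 3) of the summed SNAI1 and SNAI2 FPKM in hiPSCs. The share was 18.7% ± 2.76 in D70-ROs and 69.3% ± 15.6 in D150-ROs. In the D150-ROs the sum was only 0.687 FPKM, so that this share rested on few reads (18 counts of SNAI1 and 39 of SNAI2 over the 3 libraries). In P1 iMGCs the share was 94.7% ± 0.825 of a sum of 46.8 FPKM, and in P5 iMGCs 94.2% ± 0.512 of 53.3 FPKM. Within this pair SNAI1 predominated in hiPSCs and SNAI2 in iMGCs. SNAI3, a related Snail gene outside the 10, was at 5.76 ± 0.434 FPKM in hiPSCs, at 0.577 ± 0.0777 in D150-ROs, above the means of SNAI1 and SNAI2 there, and at 0.287 ± 0.120 in iMGCs (SD, n = 3, 3 and 6).

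The TWIST factors also differed in order between the groups. TWIST1 (ENSG00000122691, chromosome 7, 19020991 to 19117672, minus strand) was at 0.09, 0.00 and 0.03 FPKM in the hiPSC libraries, at 1.92, 1.16 and 1.63 in D70-ROs and at 0.82, 0.48 and 0.69 in D150-ROs. P1 iMGCs held 2.06, 1.74 and 2.19 FPKM and P5 iMGCs 3.66, 3.42 and 2.93. Its order was P5 above P1 iMGCs, then D70-ROs, which overlapped the P1 iMGCs, then D150-ROs and hiPSCs. TWIST1 was 5.03 ± 0.56 higher on the log2 scale in D70-ROs against hiPSCs (adjusted p = 9.16e-06), where the hiPSC libraries held 4 counts in all. From D70-ROs to D150-ROs it fell, with a log2 fold change of −1.48 ± 0.30 (adjusted p = 0.00191), but the call was lost on log2(FPKM + 1), where the value was −0.62, and when 2-fold itself was the null (adjusted p = 0.0928). It was higher in iMGCs than in D150-ROs by 2.66 ± 0.33 (adjusted p = 1.06e-05) and than in hiPSCs by 6.20 ± 0.54 (adjusted p = 2.59e-07).

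TWIST2 (ENSG00000233608, chromosome 2, 238848032 to 238910543, plus strand) was at 2.23, 2.33 and 1.91 FPKM in the hiPSC libraries, at 0.18, 0.00 and 0.08 in D70-ROs and at 0.00, 0.04 and 0.05 in D150-ROs. In P1 iMGCs it was at 1.60, 1.87 and 0.97 and in P5 iMGCs at 1.99, 1.78 and 1.65. The hiPSC and P5 iMGC ranges overlapped, as did those of P5 and P1 iMGCs, and all ROs lay below them. TWIST2 was lower in D70-ROs than in hiPSCs by −4.49 ± 0.48 (log2, adjusted p = 6.72e-06). In D150-ROs it had 2 counts over 3 libraries against 178 in hiPSCs, a ratio per total counts of 72.2-fold (95% counting interval 19.7 to 601), and it was called lower (adjusted p = 7.63e-08). iMGCs had 229 counts, 55.2-fold more per total counts than D150-ROs (interval 15.1 to 458), and TWIST2 was called higher there (adjusted p = 2.16e-07). Between iMGCs and hiPSCs its log2 fold change was −0.08 ± 0.22 (adjusted p = 0.726). Of the summed TWIST FPKM, TWIST1 made up 1.81% ± 1.95 in hiPSCs, 95.6% ± 4.29 in D70-ROs, 95.2% ± 4.20 in D150-ROs, 57.9% ± 10.7 in P1 iMGCs and 64.8% ± 0.899 in P5 iMGCs (SD, n = 3).

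The ZEB factors were the most abundant of the 10 in ROs. ZEB1 (ENSG00000148516, chromosome 10, 31318495 to 31529814, plus strand) was at 0.37, 0.28 and 0.43 FPKM in the hiPSC libraries, at 15.64, 7.58 and 20.32 in D70-ROs and at 34.92, 35.69 and 32.56 in D150-ROs. It was at 18.36, 17.92 and 18.29 FPKM in P1 iMGCs and at 18.67, 19.92 and 20.43 in P5 iMGCs. D150-ROs stood above all other groups, the D70-RO range took in all P1 iMGC libraries, and hiPSCs lay below. Compared with hiPSCs, ZEB1 rose in D70-ROs (log2 fold change 6.02 ± 0.34, adjusted p = 4.74e-08), D150-ROs (7.02 ± 0.14, adjusted p = 1.9e-12) and in iMGCs (6.82 ± 0.11, adjusted p = 2.86e-13). D70-RO replicate 2, at 7.58 FPKM, was the lowest of the RO libraries for ZEB1.

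ZEB2 (ENSG00000169554, chromosome 2, 144364364 to 144524583, minus strand) was at 0.36, 0.41 and 0.38 FPKM in the hiPSC libraries, at 34.04, 32.51 and 41.25 in D70-ROs and at 58.81, 54.41 and 51.19 in D150-ROs. It was at 18.29, 17.11 and 17.91 FPKM in P1 iMGCs and at 17.87, 18.22 and 18.43 in P5 iMGCs. The order was D150-ROs, D70-ROs, iMGCs, whose passages overlapped, and hiPSCs, with no other overlap. Against hiPSCs, ZEB2 was higher in D70-ROs by 6.20 ± 0.17 (log2, adjusted p = 4.66e-10), in D150-ROs by 6.61 ± 0.14 (adjusted p = 2.52e-12) and in iMGCs by 5.78 ± 0.10 (adjusted p = 3.12e-13).

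Between D150-ROs and D70-ROs, ZEB1 had a log2 fold change of 0.99 ± 0.24 (adjusted p = 0.00492) and ZEB2 of 0.40 ± 0.12 (adjusted p = 0.0138), both under 2-fold. ZEB1 stood just under the 2-fold limit and passed it with DESeq2 (1.01, adjusted p = 5.7e-05), with limma on log2(FPKM + 1) (1.29, adjusted p = 0.00295) and without D70-RO replicate 1 (1.07), D70-RO replicate 3 (1.22) or D150-RO replicate 3 (1.02), whereas without D70-RO replicate 2 it was 0.72. Between iMGCs and D150-ROs, ZEB1 had −0.21 ± 0.05 (adjusted p = 0.00128) and ZEB2 −0.85 ± 0.06 (adjusted p = 1.29e-07), again under 2-fold. In FPKM the iMGCs held 55.1% of the ZEB1 level and 32.8% of the ZEB2 level of D150-ROs. On log2(FPKM + 1) the median of all genes tested was itself −0.61 in this comparison, against −0.05 with TMM scaling, and on that scale ZEB2 was called lower (−1.55, adjusted p = 1.98e-10).

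ZEB1 made up 48.1% ± 6.64 of the summed ZEB FPKM in hiPSCs, 27.8% ± 7.74 in D70-ROs, 38.6% ± 1.21 in D150-ROs, 50.6% ± 0.534 in P1 iMGCs and 52.0% ± 0.774 in P5 iMGCs (SD, n = 3). The shares in D150-ROs (37.3% to 39.6%) lay below those in both passages (50.1% to 52.6%) without overlap. ZEB1 and ZEB2 belong to the longest of 4 equal classes of genes by transcript length, whose median log2 fold change was 0.80 in D150-ROs against hiPSCs, 0.48 in D150-ROs against D70-ROs and −0.24 in iMGCs against D150-ROs. SNAI1, TWIST1, TWIST2 and PRRX2 belong to the shortest class, with medians of −1.03, −0.79 and 0.35 in the same order. The part of transcript length in the members' differences was not tested.

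**Figure D2:**
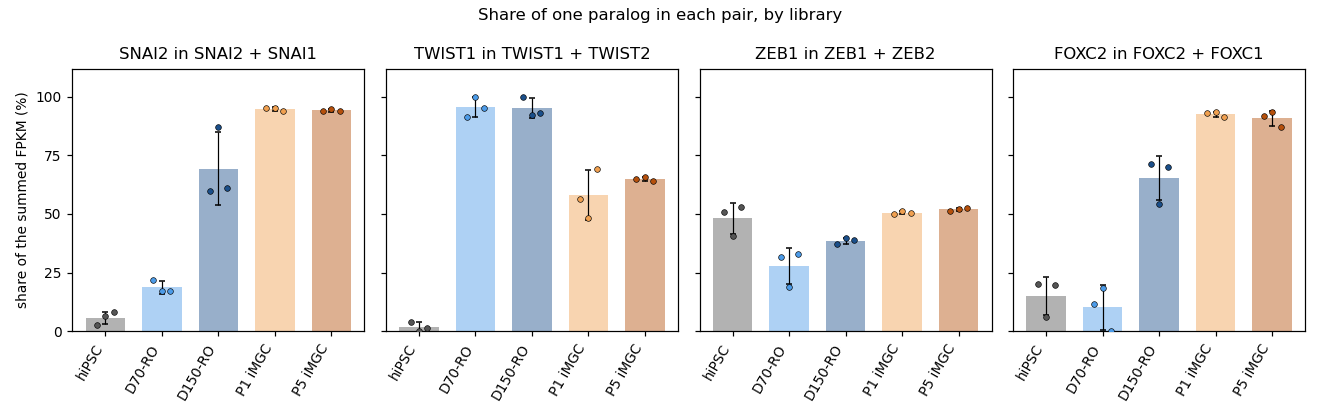
Share of SNAI2, TWIST1, ZEB1 and FOXC2 in the summed FPKM of each pair (vertical axis, percent) in the 5 groups. Points are libraries, bars are means and error bars are SD (n = 3). SNAI2 rose from 5.73% in hiPSCs to 94.7% in P1 iMGCs, and ZEB1 stayed between 27.8% and 52.0% in the group means.

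Among the forkhead factors, FOXC2 (ENSG00000176692, chromosome 16, 86566829 to 86569728, plus strand) was the abundant one in iMGCs. It was at 0.20, 0.05 and 0.18 FPKM in the hiPSC libraries, at 0.02, 0.11 and 0.00 in D70-ROs and at 1.17, 0.61 and 0.96 in D150-ROs. P1 iMGCs held 13.16, 10.96 and 12.29 FPKM and P5 iMGCs 8.38, 8.89 and 8.29. Its order was P1 iMGCs, P5 iMGCs, D150-ROs and then hiPSCs and D70-ROs, which overlapped. FOXC2 rose in iMGCs by 4.13 ± 0.23 against D150-ROs (log2, adjusted p = 8.38e-09) and by 6.46 ± 0.28 against hiPSCs (adjusted p = 3.88e-10). Without the filter FOXC2 was also higher in D150-ROs than in hiPSCs (2.33 ± 0.44, adjusted p = 0.000132) and than in D70-ROs (4.57 ± 0.71, adjusted p = 0.000224, against 4 counts in D70-ROs).

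FOXC1 (ENSG00000054598, chromosome 6, 1609972 to 1613897, plus strand), which is best known for its part in the development of the anterior eye segment, stayed near or below 1 FPKM throughout. It was at 0.80, 0.80 and 0.74 FPKM in the hiPSC libraries, 0.15, 0.48 and 0.20 in D70-ROs, 0.47, 0.51 and 0.41 in D150-ROs, 1.01, 0.79 and 1.17 in P1 iMGCs and 0.75, 0.64 and 1.22 in P5 iMGCs. iMGCs and hiPSCs overlapped, as did both RO stages, and D150-ROs lay below all hiPSC and iMGC libraries. FOXC1 was higher in iMGCs than in D150-ROs by 1.64 ± 0.25 (log2, adjusted p = 6.08e-05), and by 0.39 on log2(FPKM + 1), under 2-fold. Against hiPSCs its difference in iMGCs was 0.55 ± 0.22 (adjusted p = 0.0351), under 2-fold. FOXC2 made up 15.2% ± 8.03 of the summed FOXC FPKM in hiPSCs, 10.1% ± 9.43 in D70-ROs, 65.3% ± 9.40 in D150-ROs, 92.5% ± 1.04 in P1 iMGCs and 90.8% ± 3.19 in P5 iMGCs (SD, n = 3).

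PRRX2 (ENSG00000167157, chromosome 9, 129665641 to 129722674, plus strand) was found in hiPSCs and hardly in any other library. It was at 3.18, 1.93 and 2.73 FPKM in hiPSCs, from 205 counts, and listed at 0 in all 6 RO libraries and in 5 of 6 iMGC libraries, with 1 count (0.04 FPKM) in P1 iMGC replicate 3. Its level per total counts was at least 56.5-fold lower in D70-ROs than in hiPSCs and at least 55.5-fold lower in D150-ROs, taking 3 counts over the group as the upper limit that a count of 0 allows. The ratio of hiPSCs to iMGCs was 345-fold (95% counting interval 61.3 to 13710). These intervals and limits cover counting error only. PRRX2 was called lower in all 3 of these comparisons (adjusted p = 4.09e-06, 5.07e-07 and 1.6e-08).

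TCF21 (ENSG00000118526, chromosome 6, 133889138 to 133895553, plus strand), a factor of epicardial and other visceral mesenchyme, was at most 0.10 FPKM in any library and passed the filter in none of the comparisons. It had 5 counts over the hiPSC libraries, 2 over the D70-ROs and 1 over the D150-ROs. In iMGCs it had 25 counts over 6 libraries, with a median of 0.065 FPKM, and the ratio to D150-ROs was 12.0-fold per total counts (95% counting interval 1.97 to 494). Its exons share 1383 bases with the antisense gene TARID in GENCODE 29, and the use of strand in the counting is not stated, so that reads of both genes cannot be told apart. The same holds for ZEB2 and ZEB2-AS1 (1299 shared bases), ZEB1 and ZEB1-AS1 (366), FOXC2 and FOXC2-AS1 (145) and TWIST1 and AC003986.2 (141).

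Seen by comparison, 6 factors passed the filter between D70-ROs and hiPSCs, 3 of them were called higher (TWIST1, ZEB1 and ZEB2) and 3 lower (SNAI1, TWIST2 and PRRX2), where 22.5% and 21.1% of all 12954 genes tested were called. Between D150-ROs and hiPSCs 5 passed, with 2 higher (ZEB1, ZEB2) and 3 lower (SNAI1, TWIST2, PRRX2), where 29.8% and 29.0% of all genes were called. Between D150-ROs and D70-ROs 3 passed, with none higher and TWIST1 lower (a call lost in the settings named above), where 16.6% and 16.7% were called. A factor that passed the filter only through the group in which it is high was bound to differ, which holds for most of these. Without the filter 8 of the 10 factors were called between D70-ROs and hiPSCs and 8 between D150-ROs and hiPSCs, where 41.7% and 54.4% of all genes were called in either direction, and 3 of 9 were called between the RO stages, where 30.7% were. The additional calls between D70-ROs and hiPSCs were SNAI2 and FOXC1 (both lower), and those between D150-ROs and hiPSCs were TWIST1 and FOXC2 (higher) and FOXC1 (lower).

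Between iMGCs and D150-ROs 8 factors passed the filter, 6 were called higher (SNAI1, SNAI2, TWIST1, TWIST2, FOXC1 and FOXC2) and none lower, where 20.8% and 23.8% of all genes were called. Between iMGCs and hiPSCs 9 passed, with 5 higher (SNAI2, TWIST1, ZEB1, ZEB2 and FOXC2) and 2 lower (SNAI1 and PRRX2), where 27.0% and 28.9% were called. Without the filter 7 of the 10 were called against D150-ROs and 8 against hiPSCs, TCF21 with 25 counts being the additional one in both, where 43.1% and 53.6% of all genes were called in either direction. The count against D150-ROs was 4 of 6 with P1 iMGCs alone and 5 of 7 with P5 iMGCs alone, because FOXC1 and, in P1 iMGCs, TWIST2 then missed the filter. All 6 factors called higher than in D150-ROs passed the filter only through the iMGCs, since at most 1 D150-RO library reached 1 FPKM for any of them. Against hiPSCs, the 5 called higher passed it only through the iMGCs, and PRRX2 only through the hiPSCs. The direction of these calls, against D150-ROs as against hiPSCs, was therefore set by the filter. The summed levels of photoreceptor markers and of fibroblast and pericyte markers given above moved with these differences, and their part in them was not tested.

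**Figure D3:**
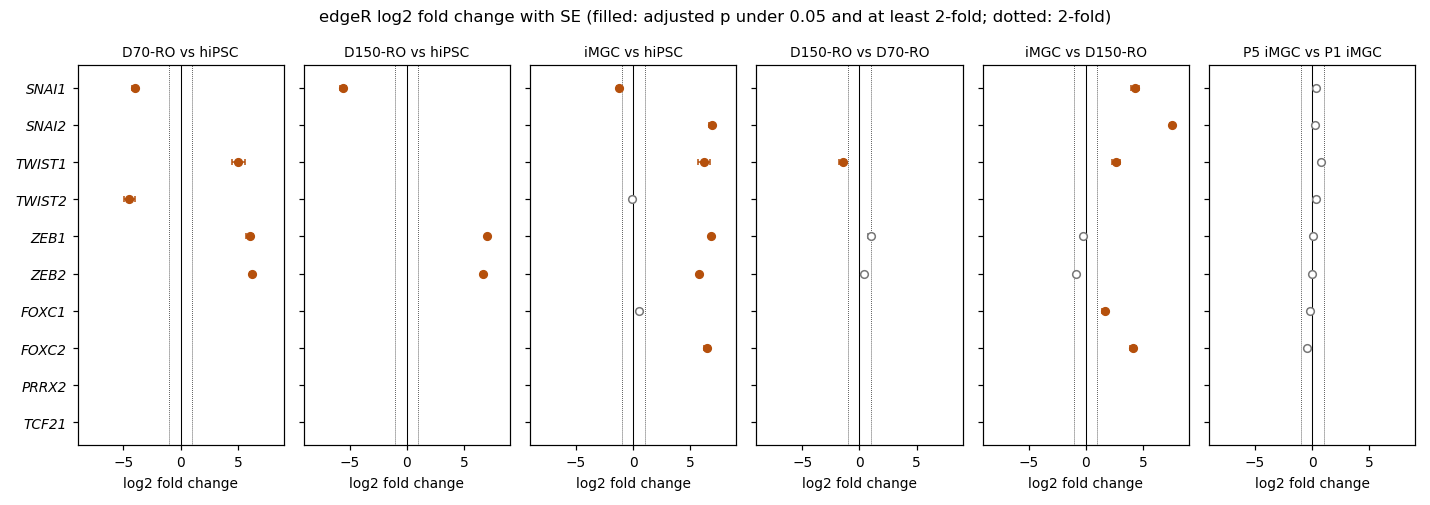
Log2 fold changes (horizontal axis) with SE of the factors tested in each comparison, from edgeR. Filled points passed an adjusted p under 0.05 and 2-fold, dotted lines mark 2-fold, and factors with 3 or fewer counts in a group are left out. Against D150-ROs the iMGCs had SNAI2 at 7.49 and ZEB2 at −0.85.

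Between the passages, 8 factors passed the filter and none was called in either direction, where 1.94% of all genes were called higher in P5 iMGCs and 0.977% lower. Without the filter none of the 10 was called either, where 4.29% of all genes were. DESeq2 called none. At an adjusted p under 0.05 but under 2-fold, TWIST1 was higher in P5 iMGCs by 0.80 ± 0.17 (log2, adjusted p = 0.00078), SNAI2 was higher by 0.25 ± 0.05 (adjusted p = 0.000207) and FOXC2 was lower by −0.46 ± 0.07 (adjusted p = 3.1e-05), each with no overlap of the 3 libraries of both passages. ZEB1 (0.09 ± 0.05), ZEB2 (0.03 ± 0.05), SNAI1 (0.36 ± 0.17), TWIST2 (0.37 ± 0.24) and FOXC1 (−0.14 ± 0.22) did not pass, with adjusted p between 0.117 and 0.683. PRRX1, a mesenchymal homeodomain factor related to PRRX2, had 3 counts over the P1 iMGC libraries and 331 over the P5 iMGC libraries, where it reached 1.75 ± 0.326 FPKM (SD, n = 3), a ratio of 111-fold (95% counting interval 37.5 to 539).

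The genes whose pattern over the 5 group means was most like that of each factor were found by the smallest root mean square difference of centred log2(FPKM + 1), among 13915 genes. They were UST and UNC93B1 for SNAI1 (0.10 and 0.11), NT5E and SP100 for SNAI2 (0.12 and 0.13), ELL2 and RRAGC for TWIST1 (0.16 and 0.17), and CHD9NB and IKBKE for TWIST2 (0.08 and 0.13). For ZEB1 they were MEGF9 and MOK (0.16 and 0.24), for ZEB2 TBC1D9 and SCD5 (0.23 and 0.28), for FOXC2 GBP3 and GNG12 (0.16 and 0.16), for FOXC1 FCF1 and GRSF1 (0.04 and 0.04) and for PRRX2 ADGRG5 and C19orf84 (0.02 and 0.03). NT5E, the cell surface ecto-nucleotidase CD73, was at 0.663 FPKM in D150-ROs and at 52.8 and 56.3 in P1 and P5 iMGCs, close to the levels of SNAI2. With 5 groups such likeness describes only the sizes of the differences between group means on this scale. Adding 1 flattens low levels, so that FOXC1 lay close to abundant genes that varied little, such as FCF1 (25.1 FPKM in D70-ROs and 36.9 in P1 iMGCs).

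Of 13 partners and inhibitors of these factors (E proteins, ID proteins and co-repressors), all of which passed the filter in every comparison, 3 were higher and 5 lower in D150-ROs than in hiPSCs, with a median log2 fold change of −0.65 against −0.02 over all genes. For this and the lists that follow, the shares of all genes called higher and lower were 29.8% and 29.0% in D150-ROs against hiPSCs and 20.8% and 23.8% in iMGCs against D150-ROs. TCF4 (1.76 ± 0.10, adjusted p = 4.16e-09), TCF12 (1.10 ± 0.10, adjusted p = 6.46e-07) and ID4 (2.78 ± 0.13, adjusted p = 1.14e-09), an inhibitor of E proteins, were higher, and TCF3 (−2.03 ± 0.09, adjusted p = 8.26e-10) and ID3 (−1.82 ± 0.12, adjusted p = 2.31e-08) were among the lower. In iMGCs against D150-ROs none was higher and 4 were lower, with a median of −0.47 against −0.05. TCF4 fell from 56.4 ± 2.88 FPKM in D150-ROs to 8.07 ± 1.15 in iMGCs (log2 fold change −2.17 ± 0.06, adjusted p = 1.55e-11) and ID4 from 21.7 ± 2.04 to 1.25 ± 0.214 (−3.46 ± 0.11, adjusted p = 7.27e-11). The count of 4 was 2 in some alternatives, such as without D150-RO replicate 1 or without P1 iMGC replicate 2, and 9 on log2(FPKM + 1), all of them lower. CTBP2, a co-repressor bound by ZEB proteins, stood at the limit (−1.01 ± 0.07, adjusted p = 5.73e-08), while TCF12 (−0.44) and ID1 (−0.79) were under 2-fold. In iMGCs against hiPSCs none of the 13 was higher and 7 were lower, among them TCF3 (−2.30 ± 0.09, adjusted p = 2.03e-10).

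Transforming growth factor beta is known to induce several of the 10 factors, and of 13 genes of this input 12 were tested, of which 4 were higher and 2 lower in D150-ROs than in hiPSCs, with a median of 0.16 against −0.02. The ligand TGFB2 rose from 0.323 ± 0.0306 FPKM in hiPSCs to 22.2 ± 1.21 in D150-ROs (5.73 ± 0.13, adjusted p = 3.35e-12) and TGFB3 from 0.19 ± 0.02 to 2.71 ± 0.496 (3.59 ± 0.29, adjusted p = 1.29e-07). Both ligands passed the filter only through D150-ROs, so that their direction was set by the filter. HMGA2, a chromatin protein known to act on SNAI1 (−2.19 ± 0.09, adjusted p = 3.86e-10), and SKI, a repressor of SMAD proteins (−1.61 ± 0.13, adjusted p = 1.03e-07), fell. Against D150-ROs, 8 were higher in iMGCs and 1 lower, with a median of 1.33 against −0.05. TGFBR2, the type II receptor, rose from 1.61 ± 0.369 to 20.6 ± 3.05 FPKM (4.33 ± 0.19, adjusted p = 1.33e-09), TGFB2 to 176 ± 10.5 FPKM (3.64 ± 0.06, adjusted p = 3.95e-13) and HMGA2 to 58.1 ± 5.24 FPKM (2.53 ± 0.07, adjusted p = 3.95e-11). The signal transducer SMAD2 was the gene that fell, by −1.28 ± 0.04 on the log2 scale (adjusted p = 7.29e-11).

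Most epithelial genes were lower in ROs and iMGCs than in hiPSCs. Of 27, 26 were tested between D70-ROs and hiPSCs, where none was higher and 25 were lower, with a median log2 fold change of −5.74 against 0.02 over all genes. Between D150-ROs and hiPSCs 1 was higher and 23 of 27 were lower (median −6.84 against −0.02), and between iMGCs and hiPSCs 1 was higher and 23 of 26 were lower (−7.50 against −0.06, and −7.42 with genes at 0 counts set to their bound). CDH1, the epithelial cadherin, was at 104 to 133 FPKM in hiPSCs, 0.36 to 0.49 in D70-ROs, 0.46 to 0.85 in D150-ROs and 0 to 0.09 in iMGCs, and was lower in D150-ROs by −8.00 ± 0.15 (adjusted p = 1.57e-12). CLDN7 and CRB3, whose windows are shown above, fell from 94.5 to 107 and 10.5 to 11.7 FPKM in hiPSCs to 0.36 to 0.9 and 0.26 to 0.46 in D150-ROs (−8.06 ± 0.16 and −5.71 ± 0.25, adjusted p = 2.19e-12 and 5.43e-10), and both were chosen for their matches. ESRP1, an epithelial splicing regulator, fell by −9.23 ± 0.15 (adjusted p = 1.42e-12). ST14, a membrane protease, had 3 counts in D150-ROs against 3829 in hiPSCs, and GRHL1, an epithelial transcription factor, was the gene called higher (1.78 ± 0.23, adjusted p = 1.14e-05). Many of the genes called lower passed the filter only through hiPSCs, so that their direction was set by the filter. CDH1, ESRP1 and ST14 were under 1 FPKM in every RO and iMGC library, and CLDN7 and CRB3 in every RO library. GRHL1 was under 1 FPKM in every hiPSC library, and its rise was likewise set by the filter.

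Against D150-ROs the epithelial list was split in iMGCs. Of 13 tested, 5 were higher and 5 lower, with a median of −0.65 against −0.05. The tight junction protein TJP3 (−6.98 ± 0.33, adjusted p = 2.36e-09) and the polarity protein LLGL2 (−6.59 ± 0.19, adjusted p = 3.95e-11) fell. TJP3, LLGL2, CDH3, CLDN6 and GRHL1 were under 1 FPKM in every iMGC library and passed the filter only through D150-ROs. KRT19 was under 1 FPKM in every D150-RO library and passed it only through iMGCs. The direction of all these genes was set by the filter. The keratins KRT18 (6.88 ± 0.44, adjusted p = 3.46e-08) and KRT8 (4.19 ± 0.27, adjusted p = 3.76e-08), which form intermediate filaments of simple epithelia, rose, KRT18 from 1.94 ± 0.292 FPKM in D150-ROs to 142 ± 56.8 in iMGCs (SD, n = 3 and 6). KRT18 differed between the passages and was lower in P5 iMGCs by −1.04 ± 0.04 (adjusted p = 6.8e-16).

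Mesenchymal genes moved in both directions in D150-ROs against hiPSCs. Of 25 such genes 21 were tested in D150-ROs against hiPSCs, with 9 higher and 9 lower and a median of 0.11 against −0.02. FAP, a fibroblast surface protease (5.72 ± 0.47, adjusted p = 1.86e-07), rose, and so did the neural cadherin CDH2 (3.35 ± 0.09, adjusted p = 8.72e-12) and the intermediate filament vimentin, VIM (2.55 ± 0.10, adjusted p = 2.97e-10). THY1 (−6.45 ± 0.15, adjusted p = 4.99e-12) and CNN1, a smooth muscle calponin (−5.17 ± 0.28, adjusted p = 3.09e-09), fell. FAP was at most 0.08 FPKM in hiPSCs and CNN1 at most 0.33 in D150-ROs. Each passed the filter only through the other group, so that its direction was set by the filter. In iMGCs against D150-ROs, 24 of 25 were higher and none lower, with a median of 5.03 against −0.05. COL3A1, POSTN, CNN1, LUM and DCN on this list were under 1 FPKM in every D150-RO library. They passed the filter only through iMGCs, so that their direction was set by the filter. Fibronectin, FN1, rose from 8.95 ± 1.61 to 8700 ± 437 FPKM (10.56 ± 0.17, adjusted p = 3.37e-13) and the collagen gene COL1A1 from 2.77 ± 0.09 to 2108 ± 147 (10.46 ± 0.14, adjusted p = 1.33e-13). CDH2 (1.20 ± 0.04, adjusted p = 5.72e-11) and VIM (1.89 ± 0.14, adjusted p = 1.47e-07) rose less. The summed FPKM of the fibroblast and pericyte markers given above rose with this list, which shares genes with them. PDGFRA, which is not on this list, went the other way, and the part of such cells was not tested.

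**Figure D4:**
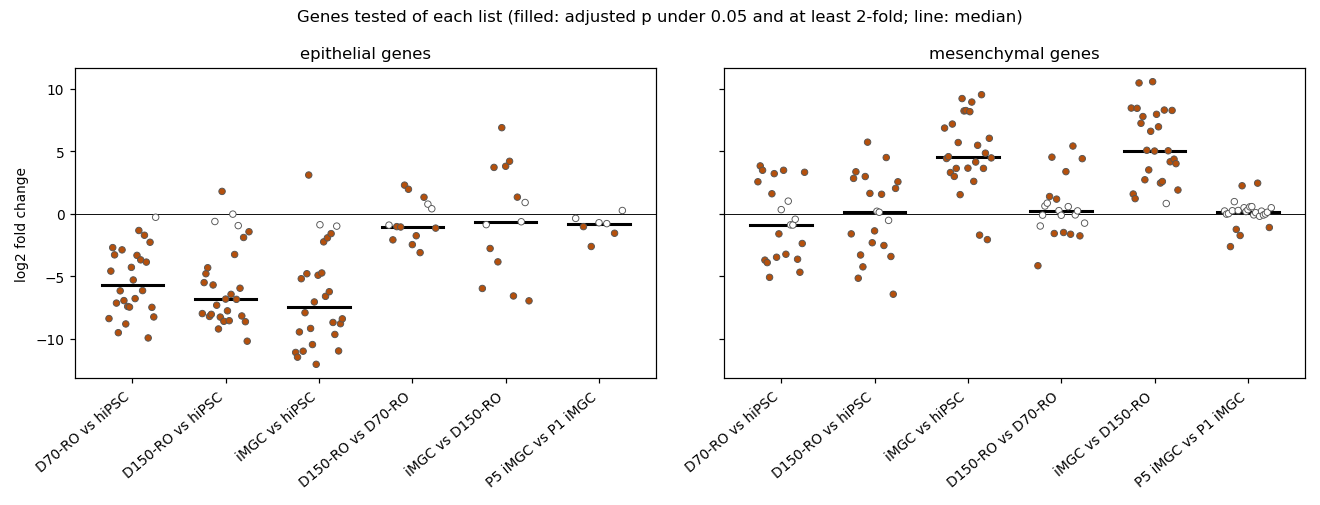
Log2 fold changes (vertical axis) of the epithelial genes (left) and mesenchymal genes (right) tested in each comparison. Points are genes, filled where called, and lines are medians. Epithelial medians were −5.74, −6.84 and −7.50 against hiPSCs, and the mesenchymal median was 5.03 in iMGCs against D150-ROs.

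Of 24 other transcription factors of mesenchyme, few were above the filter outside iMGCs. In D150-ROs against hiPSCs 4 were tested, none higher and 3 lower, among them TCF15 (1 count against 255) and MSC (3 counts against 257), both basic helix-loop-helix factors. The 3 reached the filter only through hiPSCs, so that their direction was set by the filter. The 9 called in the next comparison reached it only through iMGCs. In iMGCs against D150-ROs 10 were tested, 9 higher and none lower, with a median of 5.29 against −0.05. FOXD1, a forkhead factor of kidney stroma and of the temporal retina, was at 0.0267 ± 0.0462 FPKM in D150-ROs and 41.8 ± 1.30 in iMGCs, from 3 and 9519 counts, a ratio of 1529-fold (95% counting interval 523 to 7414). MSC was at 0.03 ± 0.0520 and 14.4 ± 6.33 FPKM, from 3 and 2926 counts, a ratio of 470-fold (interval 161 to 2280). PRRX1 was called higher in iMGCs than in D150-ROs (3.97 ± 1.57, adjusted p = 0.0338), which rested on the P5 iMGCs.

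In D70-ROs against hiPSCs, where 22.5% of all genes tested were called higher and 21.1% lower, 2 of 13 partners were higher and 1 lower, 3 of 12 TGF-beta genes were higher and 4 lower, 7 of 21 mesenchymal genes were higher and 9 lower (median −0.90 against 0.02), and 1 of 5 other factors was higher and 3 lower. In D150-ROs against D70-ROs, where 16.6% were called higher and 16.7% lower, 3 of 13 epithelial genes were higher and 7 lower, 6 of 21 mesenchymal genes were higher and 5 lower, 1 of 13 partners was higher and 2 lower, 4 of 13 TGF-beta genes were higher and 1 lower, and 1 of 2 other factors was lower. In iMGCs against hiPSCs, where 27.0% were called higher and 28.9% lower, 23 of 25 mesenchymal genes were higher and 2 lower (median 4.56 against −0.06), 10 of 13 TGF-beta genes were higher and none lower, and 9 of 12 other factors were higher and 2 lower. Between the passages, where 1.94% were called higher and 0.977% lower, 2 of 25 mesenchymal genes were higher in P5 iMGCs and 4 lower, 3 of 7 epithelial genes were lower, 1 of 13 TGF-beta genes was higher, and no partner was called by edgeR or DESeq2. Several of these counts lie near the shares over all genes, and nothing is read from them.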

How the data were processed

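Poly(A) RNA of 15 libraries in 5 groups of 3 was sequenced. The authors mapped paired-end reads with HISAT2, assembled them with StringTie, quantified genes with RSEM and used DESeq2 for their own comparisons. Versions, genome build and annotation are not given in the sources used here. The authors deposited expected counts without normalization and, beside them, FPKM, scaled by library and transcript length. Whether the batch correction named in the series description touched them is not stated. Between 8.21% and 10.1% of the expected counts per library were not whole and were rounded. GENCODE 29 (GRCh38) held all 19684 identifiers and was used for positions, overlaps and transcript lengths only. Another table with 6 columns of iMGC values (counts and FPKM) names no passage, and these columns were not used.

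Groups were compared 2 at a time with edgeR 4.0.16 in R 4.3.3 (quasi-likelihood test, TMM factors) over genes with at least 1 FPKM in at least 3 libraries, and SE is the absolute log2 fold change divided by the square root of F. Calls needed, as in the study, at least 2-fold and p under 0.05 after Benjamini-Hochberg adjustment. Alternatives were upper-quartile factors, DESeq2 1.42.0, limma 3.58.1 on log2(FPKM + 1) and log2(FPKM + 0.1), no filter, a test against a 2-fold change, all 15 libraries in 1 fit, the replicate number as a block, P1 or P5 iMGCs alone and each library left out. The fits were tested on simulated data. Where a group held 0 to 3 counts, ratios per total counts with exact 95% intervals are given, or a bound from 3 counts over the group. Replicates of a group differed by more than sampling noise.

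The 10 factors were named whatever their values. From 5 gene lists the 2 largest called rises and falls in iMGCs against D150-ROs and in D150-ROs against hiPSCs were named, with CDH1, CDH2, VIM, TCF4, TCF12, ID1, CTBP2, PRRX1, TGFB2 and HMGA2 in any case, and for each factor tested the 2 genes of most like pattern. Some results that this rule names are not reported here. The factors and lists were chosen with earlier results of these data known.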

Additional observations from a re-analysis of the deposited data

Results flagged for a closer look

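1 value of the 10 factors stood apart among the 6 iMGC libraries: PRRX2 was at 0.04 FPKM in P1 iMGC replicate 3 and at 0 in the other 5. The highest library was apart from all others by the whole range of the group, which was from 1 count. Where only 1 of the 6 libraries holds reads, this gap always equals the range and the flag must be raised, so that nothing is read from it.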

How the results depend on the processing

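The counts of factors called were recomputed under 94 alternatives, and 85 of them stayed within 1.5 times the reported count. For D150-ROs against hiPSCs the count of 5 became 8 without the filter on low values. For D150-ROs against D70-ROs the count of 1 became 2 with DESeq2, 2 with limma on log2(FPKM + 0.1), 3 without the filter and 0 when tested against a 2-fold change, and it was between 1 and 2 with each library left out, the count of 2 arising without D70-RO replicate 1, D70-RO replicate 3 or D150-RO replicate 3. In that comparison TWIST1 was lower by −1.48 with an adjusted p of 0.0928 against a 2-fold change and by −0.62 on log2(FPKM + 1).

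Of 626 alternative fold changes of factors, 607 kept their direction and their side of the limits. Those that changed direction were not called. TWIST2 in iMGCs against hiPSCs lay between −0.19 and 0.03 with libraries left out (0.002 without hiPSC replicate 2) and at 0.10 with P5 iMGCs alone. Between the passages, ZEB2 lay between −0.002 and 0.07 and FOXC1 between −0.45 and 0.03 (0.005 without P1 iMGC replicate 3) with libraries left out. With the replicate number as a block the count for D150-ROs against D70-ROs was 2, since ZEB1 had 1.07, and the block changed no other count of factors called. Correlations of same-numbered libraries were −0.06 to 0.321, not all above 0.1 in any comparison, so the numbers were not read as pairs. Levels under 1 FPKM rest on few counts, which limits SNAI1 and TWIST2 in D150-ROs and TCF21 throughout.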

Other observations

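Some other transcription factors of mesenchyme differed between the passages. Of 24, 10 were tested between P5 and P1 iMGCs, 3 were higher (PRRX1 and MSX2 among them) and 1 was lower (MSC), with a median log2 fold change of 0.12. MSX2, a homeodomain factor of skull and limb mesenchyme, was at 0.573 and 2.35 FPKM in P1 and P5 iMGCs (log2 fold change 2.11 ± 0.22, adjusted p = 3.46e-08, edgeR), and MSC was at 20.2 and 8.67 (−1.16 ± 0.07, adjusted p = 2.96e-12). PRRX1 and MSX2 were under 1 FPKM in every P1 iMGC library. They passed the filter only through P5 iMGCs, so that their direction was set by the filter. MSX2 was named after its values were seen.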
